A study of Homo sapiens with 12 samples.

Results

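The 48 genes described here encode the machinery that brings new secretory proteins into the endoplasmic reticulum (ER) and carries them on to the Golgi. They were chosen by name, as the subunits and partners of the translocon, signal peptidase, the TRAP complex, the signal recognition particle (SRP), the COPII and COPI coats and the cargo and retrieval receptors. No measured value served as a rule for that choice, but earlier results of these data were known when it was made. Of the 48, 46 have a probe set annotated to that gene alone, and all 46 passed the filter on low values. SEC61G and KDELR2 have none in the annotation used here. The tested table held 10729 genes in all.

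The cells were HK-2, an immortalized line derived from human renal proximal tubule epithelium, which in the body reabsorbs filtered solutes. They were grown in medium with EGF, hydrocortisone, insulin, transferrin and selenite, and were treated near confluence. The groups were Ota for 24 h, control for 24 h, Ota for 72 h and control for 72 h, with 3 arrays each and 12 in all. Ota was given at a dose labelled high, whose amount and full name the labels do not state, and the control cells received the vehicle. All 12 arrays came from the same single line. The labels call the arrays biological replicates but do not say whether they were separate cultures, so a p-value here speaks of the spread among these arrays only, which may be technical.

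A protein bound for secretion is recognised by its signal sequence as it leaves the ribosome. SRP takes it to the SRP receptor on the ER membrane, the SEC61 translocon threads it through, and signal peptidase removes the signal. COPII-coated vesicles then leave the ER toward the Golgi, and COPI-coated vesicles bring escaped ER residents and receptors back. Proximal tubule cells rely on this route for their transporters and endocytic receptors.

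Each value is a log2 expression value as deposited, so a difference of 1 is a doubling. Fold changes are differences of group means on that scale, Ota minus control unless stated, with the standard error (SE) of limma's fit. A gene is said to have risen or fallen where limma's Benjamini-Hochberg adjusted p, taken over all 10729 genes, was under 0.05. These are bulk samples, so fewer cells of a kind and less RNA per cell cannot be told apart.

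Array-wide measures moved with the treatment, and their part in the results was not tested. The poly-A spike-in probe sets, for transcripts of non-human origin, averaged 9.83 ± 0.24 on the Ota arrays and 7.98 ± 0.19 on the control arrays at 24 h, and 8.91 ± 0.37 against 8.02 ± 0.035 at 72 h (SD, n = 3 each). The median over tested genes was 7.40 on the Ota arrays and 7.97 on the control arrays at 24 h, and 7.68 against 7.96 at 72 h. The 3' minus 5' difference of ACTB, a sign of RNA integrity, was 1.97 ± 0.33 in Ota cells and 1.39 ± 0.15 in control cells at 72 h, with separated arrays (exact permutation p = 0.1, two-sided, the smallest that 3 against 3 arrays allow). At 24 h it was 1.23 in Ota cells and 1.18 in control cells (exact permutation p = 0.9), and that of GAPDH differed by 0.03 at each time (exact permutation p = 0.3 and 0.7). The 18S rRNA probe sets averaged 8.67 in Ota cells and 7.09 in control cells at 24 h, and 8.74 against 7.40 at 72 h. Of 13 HK-2 and proximal tubule markers, the epithelial genes KRT8, KRT18, KRT19, PAX8 and CDH6 passed the filter, and the brush-border and transport genes GGT1, MME, ANPEP, LRP2, CUBN, AQP1, SLC34A1 and SLC5A2 did not. Among markers with a probe set, 0 of 4 endothelial and 0 of 3 leukocyte markers passed, against 3 of 5 fibroblast, 1 of 3 podocyte and 1 of 4 distal tubule markers. Some marker levels moved with Ota. PAX8 averaged 7.54 in Ota cells and 10.08 in control cells at 24 h and 7.99 against 9.58 at 72 h, and KRT19 averaged 9.57 against 11.99 and 10.24 against 11.54. The fibroblast gene LUM averaged 9.73 in Ota cells and 9.04 in control cells at 24 h and 8.81 against 7.26 at 72 h, and the collecting duct gene AQP3 averaged 8.02 against 6.93 and 8.31 against 6.29.

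After 24 h of Ota, 11 of the 46 measured genes rose, 16 fell and 19 did not pass the test. Those shares, 23.9% higher and 34.8% lower, stand against a background of 20.8% higher and 40.5% lower over all tested genes, of which 61.3% were called in either direction. After 72 h, 9 rose, 18 fell and 19 did not pass, or 19.6% and 39.1% against a background of 24.8% and 35.2%, with 60.1% called in all. The shares were thus near the background at both times. The median fold change of the 46 was -0.13 at 24 h and -0.22 at 72 h, against -0.24 and -0.11 over all genes. The split at 24 h depends on the scale: with each array centred on its own median, 23 of the 46 rose and 8 fell. Under that centring 4659 of all tested genes rose and 2863 fell. Centring ended the 24 h falls of SSR1, SSR2, SSR3, SRP54, SRP72, SEC23A, SEC31A and COPB2 and the 72 h falls of SEC61A1, SEC63, COPB1, COPB2 and KDELR1. With arrays scaled to their poly-A spike-ins, 0 rose and 43 fell at 24 h, and 0 rose and 34 fell at 72 h. The same scaling moved tested genes as a whole: 152 rose and 10035 fell at 24 h, and 555 rose and 6718 fell at 72 h. The arrays of the groups did not overlap for 11 genes that were higher and 19 that were lower at 24 h, against a background of 24.1% higher and 41.5% lower. At 72 h these were 11 and 22, against 32.2% and 41.5%, and in control cells at 72 h over 24 h they were 31 and 2, against 26.4% and 27.1%. Every rise of the 46 genes with Ota is on the deposited scale and is not kept under spike-in scaling.

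**Figure D1:**
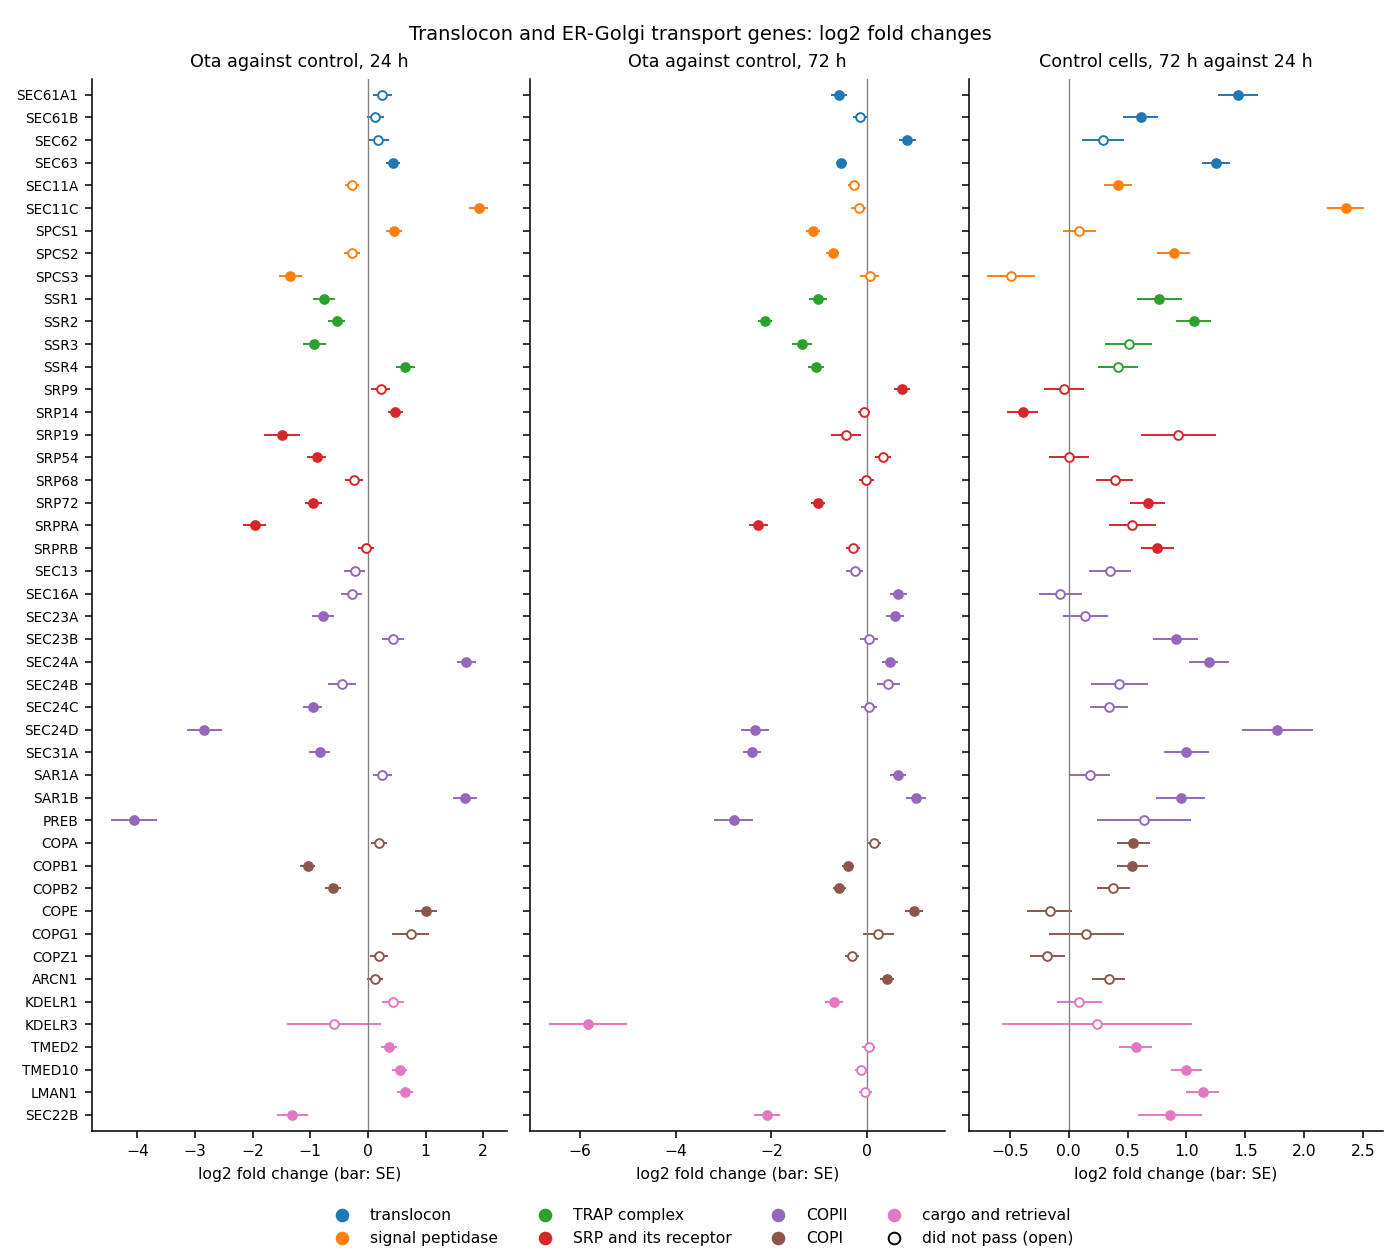
Log2 fold change (Ota minus control, x axis) of the 46 measured genes, by role, at 24 h and 72 h, and of control cells at 72 h against 24 h, with bars for the SE of limma's fit. Filled points passed the test and open points did not. The Ota values run from -4.06 to 1.92 at 24 h and from -5.83 to 1.02 at 72 h, and most roles hold genes on both sides of 0, while in control cells most points lie above 0.

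The same 46 genes followed several courses. The share of all tested genes with each course was not counted, so these numbers have no background. Of all tested genes, 61.3% were called at 24 h and 60.1% at 72 h. There were 11 that fell at both times (SSR1, SSR2, SSR3, SRP72, SRPRA, SEC24D, SEC31A, PREB, COPB1, COPB2 and SEC22B) and 3 that rose at both (SEC24A, SAR1B and COPE). Another 3 rose at 24 h and fell at 72 h (SEC63, SPCS1 and SSR4), and SEC23A did the opposite. A further 9 were called at 24 h alone and 9 at 72 h alone, while 10 passed the test at neither time. The 10 were SEC61B, SEC11A, SRP68, SRPRB, SEC13, SEC23B, SEC24B, COPA, COPG1 and COPZ1. These courses are those of the brightest probe sets. Other probe sets were called in the opposite direction for COPB2 and SAR1B at both times. The same held for SSR1 at 24 h and for SEC63 and SPCS2 at 72 h. Among the 10 called at neither time, another probe set passed at 24 h for SEC23B, SEC11A and COPA. At 72 h another passed for SEC23B, SEC11A, SRPRB and COPZ1.

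The signal recognition particle and its receptor make the first step of targeting. Of 8 measured genes, 1 rose and 4 fell at 24 h (12.5% and 50% against 20.8% and 40.5% of all genes). At 72 h 1 rose and 2 fell (12.5% and 25% against 24.8% and 35.2%). SRPRA, the receptor subunit that docks SRP, read 6.89, 7.27 and 6.58 in Ota cells against 8.73, 9.05 and 8.84 in control cells at 24 h. Its 72 h values were 7.22, 6.85 and 7.34 in Ota cells against 9.46, 9.22 and 9.56 in control cells. Every Ota array lay below every control array at both times. The fold change was -1.96 ± 0.20 at 24 h (adjusted p = 5.9e-06) and -2.27 ± 0.20 at 72 h (adjusted p = 2e-06), and a weaker SRPRA probe set gave -0.52 and -1.29. SRPRB, which anchors the receptor in the membrane, gave -0.03 ± 0.14 and -0.30 ± 0.14 and passed at neither time.

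SRP72, a protein of the particle's core, fell by 0.95 at 24 h and by 1.02 at 72 h, and all 5 of its probe sets fell at both times. SRP54, which binds the signal sequence itself, fell at 24 h (-0.89 ± 0.17, adjusted p = 0.00059) and gave 0.33 ± 0.17 at 72 h (adjusted p = 0.1). SRP19, which helps assemble the particle, read 8.51, 7.57 and 9.05 in Ota cells against 9.82, 9.54 and 10.24 in control cells at 24 h. Its fall of 1.49 at 24 h had an adjusted p of 0.0016, and at 72 h the fold change was -0.44 ± 0.32 (adjusted p = 0.26). SRP9 and SRP14 form the Alu-domain dimer that slows elongation. SRP14 rose at 24 h (0.47 ± 0.13) and SRP9 rose at 72 h (0.72 ± 0.17), while the other of the pair did not pass at that time.

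The SEC61 translocon is the channel in the ER membrane. By the brightest probe sets, SEC63 alone of its 4 measured genes rose at 24 h, by 0.44 ± 0.12. At 72 h SEC62 rose while SEC61A1 and SEC63 fell. The shares were 25% higher and 0% lower at 24 h, against 20.8% and 40.5% of all genes. At 72 h they were 25% and 50%, against 24.8% and 35.2%. SEC62 and SEC63 assist chains that enter after translation. SEC62 read 13.87, 13.65 and 13.57 in Ota cells against 12.74, 12.99 and 12.85 in control cells at 72 h, a change of 0.84 ± 0.18 (adjusted p = 0.0017). That is its brightest probe set, which gave 0.18 ± 0.18 at 24 h. Of the other 4 SEC62 probe sets, 3 rose at both times, with 1.98, 1.89 and 0.71 at 24 h and 2.29, 2.03 and 1.33 at 72 h, and 1 fell at 24 h (-0.76) and gave 0.05 at 72 h. SEC61A1, the pore-forming subunit, fell by 0.59 at 72 h (adjusted p = 0.01), and without replicate 3 of the 72 h controls the value was -0.46 (adjusted p = 0.053). Under centring on the array median SEC61A1 (-0.31) and SEC63 (-0.26) lost their calls at 72 h. The mean over probe sets gave -0.35 for SEC61A1 (adjusted p = 0.081) and 0.53 for SEC63. SEC61B, the small tail-anchored subunit, gave 0.13 ± 0.15 and -0.15 ± 0.15.

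Signal peptidase is built from a catalytic subunit, SEC11A or SEC11C, with SPCS1, SPCS2 and SPCS3. At 24 h 2 of these 5 genes rose and 1 fell (40% and 20% against 20.8% and 40.5% of all genes), and at 72 h 0 rose and 2 fell (0% and 40% against 24.8% and 35.2%). SEC11C read 10.05, 9.96 and 9.56 in Ota cells against 8.0, 7.89 and 7.90 in control cells at 24 h, the largest rise among the probe sets that stand for the 46 genes. At 72 h it read 10.30, 10.04 and 9.97 in Ota cells against 10.21, 10.20 and 10.43 in control cells, and the groups overlapped. The Ota arrays lay between 9.56 and 10.30 at both times, and the control arrays stood higher at 72 h than at 24 h. The fold changes were 1.92 ± 0.16 (adjusted p = 1.2e-06) and -0.18 ± 0.16 (adjusted p = 0.35). SEC11A, the other catalytic subunit, gave -0.27 ± 0.12 at each time and passed at neither, while its second probe set fell at both (-0.32, with adjusted p = 0.048 at 24 h and 0.046 at 72 h).

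The accessory subunits did not move together. SPCS1 read 12.50, 12.51 and 12.30 in Ota cells against 12.05, 11.92 and 11.99 in control cells at 24 h, and 10.91, 11.15 and 10.80 against 11.98, 12.09 and 12.17 at 72 h. It rose by 0.45 ± 0.14 and then fell by 1.13. SPCS3, whose yeast counterpart is essential, went the other way: it fell by 1.35 at 24 h (adjusted p = 9.7e-05) and gave 0.05 ± 0.20 at 72 h. A second SPCS3 probe set gave -0.13 at 24 h and was not called.

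The TRAP complex, encoded by SSR1 to SSR4, sits beside the translocon and helps some chains enter. At 72 h all 4 of its genes fell, with a median of -1.22, against 35.2% lower and a median of -0.11 over all tested genes. SSR2 read 9.90, 9.85 and 10.03 in Ota cells against 12.03, 11.99 and 12.16 in control cells, a change of -2.13 ± 0.15 (adjusted p = 3.4e-07). SSR3 read 12.09, 11.43 and 12.23 in Ota cells against 13.35, 13.06 and 13.43 in control cells, a change of -1.36 ± 0.20 (adjusted p = 0.00011). SSR1 read 12.45, 12.09 and 12.48 in Ota cells against 13.36, 13.17 and 13.53 in control cells, a change of -1.02 ± 0.19 (adjusted p = 0.00068). No Ota array reached the lowest control array in any of these. All 4 falls at 72 h kept their calls under quantile normalization and under centring on the array median.

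At 24 h 3 of the TRAP genes fell and SSR4 rose, against a background of 40.5% lower and 20.8% higher. SSR1 changed by -0.77 ± 0.19, SSR2 by -0.54 ± 0.15 and SSR3 by -0.93 ± 0.20. Centring on the array median ended those 3 calls, with values of -0.21, 0.02 and -0.37. SSR4 read 13.00, 13.10 and 13.13 in Ota cells against 12.48, 12.57 and 12.22 in control cells at 24 h. At 72 h it read 11.44, 12.05 and 11.83 in Ota cells against 12.89, 12.76 and 12.88 in control cells. The Ota arrays were thus the higher ones at 24 h and the lower ones at 72 h, with fold changes of 0.65 ± 0.17 (adjusted p = 0.0052) and -1.07 ± 0.17 (adjusted p = 0.00017). A further pair of SSR1 probe sets gave 1.26 and 1.62 at 24 h, and 0.38 and 0.62 at 72 h. The mean over the SSR1 probe sets gave 0.11 and -0.51 and was called at neither time. Of the other 3 SSR3 probe sets, the dimmest gave -0.01 at 72 h.

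**Figure D2:**
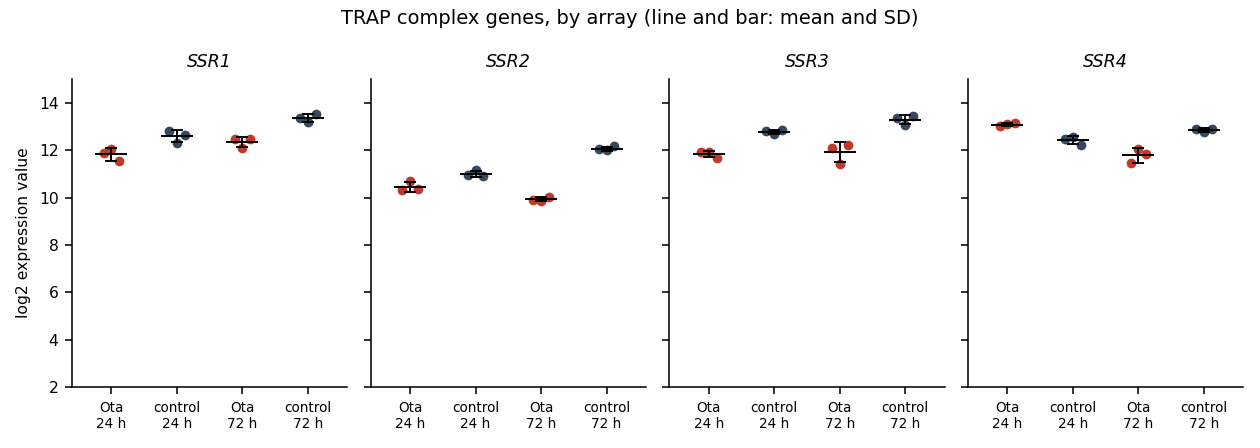
Log2 expression values (y axis) of the 4 TRAP complex genes on each of the 12 arrays, by group, with the mean and SD (n = 3). At 72 h the Ota arrays lie below the control arrays for all 4 genes, and at 24 h they lie above them for SSR4 only.

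The COPII coat buds vesicles from the ER. SAR1A and SAR1B are the GTPases that start a bud, PREB (SEC12) is their exchange factor, SEC23 and SEC24 proteins form the inner coat, SEC13 and SEC31A the outer cage, and SEC16A marks the exit site. Of 12 measured genes, 2 rose and 5 fell at 24 h (16.7% and 41.7% against 20.8% and 40.5% of all genes). At 72 h 5 rose and 3 fell (41.7% and 25% against 24.8% and 35.2%). PREB, SEC24D and SEC31A fell at both times and were among the largest falls of the 46.

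PREB read 3.82, 3.49 and 3.56 in Ota cells against 7.85, 7.65 and 7.56 in control cells at 24 h. At 72 h it read 5.79, 4.39 and 6.43 in Ota cells against 8.19, 8.03 and 8.76 in control cells. The 24 h Ota arrays lay below 4, the level of the filter, and the 72 h Ota arrays were spread between there and the controls. The fold changes were -4.06 ± 0.40 (adjusted p = 4.5e-06) and -2.79 ± 0.40 (adjusted p = 8.6e-05), from a single probe set.

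SEC24D is 1 of 4 SEC24 paralogs, the adaptors that select cargo. It read 5.93, 4.81 and 5.97 in Ota cells against 8.42, 8.22 and 8.60 in control cells at 24 h, and 8.33, 7.71 and 7.51 against 10.10, 10.16 and 10.29 at 72 h. Both groups were higher at 72 h than at 24 h, and the Ota arrays stayed below. The fold changes were -2.84 ± 0.30 (adjusted p = 7.1e-06) and -2.34 ± 0.30 (adjusted p = 3.4e-05). SEC24C fell at 24 h alone (-0.96 ± 0.16, against 0.04 ± 0.16 at 72 h), and SEC24B passed at neither time (-0.45 ± 0.24 and 0.44 ± 0.24).

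SEC24A moved the other way. It read 11.10, 11.05 and 11.06 in Ota cells against 9.20, 9.31 and 9.56 in control cells at 24 h, and 11.12, 11.27 and 10.69 against 10.43, 10.53 and 10.67 at 72 h. The lowest 72 h Ota array stood just above the highest control array. The fold changes were 1.71 ± 0.17 (adjusted p = 4.2e-06) and 0.48 ± 0.17 (adjusted p = 0.026). Leaving out any of 4 arrays ended the 72 h call: Ota replicate 1 (adjusted p = 0.081), Ota replicate 2 (0.097), control replicate 1 (0.089) or control replicate 2 (0.063). A lower-reading SEC24A probe set gave -0.05 and 0.34 and was called at neither time.

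SEC31A read 10.17, 10.23 and 9.81 in Ota cells against 11.15, 10.82 and 10.75 in control cells at 24 h. At 72 h it read 9.59, 9.20 and 9.70 in Ota cells against 11.97, 11.72 and 12.04 in control cells. The gap between the groups was wider at 72 h, with fold changes of -0.84 ± 0.19 (adjusted p = 0.002) and -2.41 ± 0.19 (adjusted p = 7.6e-07). Its second probe set gave -0.80 and -2.46. SEC13, its partner in the cage, gave -0.23 ± 0.18 and -0.26 ± 0.18 and passed at neither time. SEC23A fell by 0.78 at 24 h and rose by 0.58 ± 0.19 at 72 h (adjusted p = 0.021), and its 72 h call was lost without Ota replicate 1 (adjusted p = 0.073), control replicate 1 (0.051) or control replicate 2 (0.061). SEC23B gave 0.43 ± 0.19 at 24 h (adjusted p = 0.065, and 0.031 with the replicate number as a block) and 0.04 ± 0.19 at 72 h by its brightest probe set. Its other probe sets rose at 24 h, by 2.13 (adjusted p = 4.5e-07) and 0.54 (adjusted p = 0.015), and gave 0.72 (adjusted p = 0.002) and 0.09 at 72 h. SEC16A (0.65 ± 0.18) and SAR1A (0.65 ± 0.17) rose at 72 h alone by their brightest probe sets. A second SAR1A probe set fell at 24 h (-1.09, adjusted p = 0.0011) and gave -0.54 at 72 h, not called. The dimmest SAR1A probe set gave -0.43 at 24 h, not called, and rose by 1.51 at 72 h. The mean over the SAR1A probe sets fell at 24 h (-0.43, adjusted p = 0.013).

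SAR1B is called higher here through its brightest probe set. That probe set read 9.62, 9.17 and 9.91 in Ota cells against 7.92, 7.78 and 7.95 in control cells at 24 h, and 9.80, 10.24 and 9.53 against 8.71, 8.81 and 8.99 at 72 h. The fold changes were 1.68 ± 0.21 (adjusted p = 3.2e-05) and 1.02 ± 0.21 (adjusted p = 0.0013). Another 3 SAR1B probe sets fell at both times, with -2.38 and -1.38 for the first, -2.33 and -1.46 for the second, and -1.42 and -1.23 for the third. The mean over its probe sets was -0.81 at 24 h and -0.43 at 72 h. The direction of SAR1B therefore depends on the probe set.

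**Figure D3:**
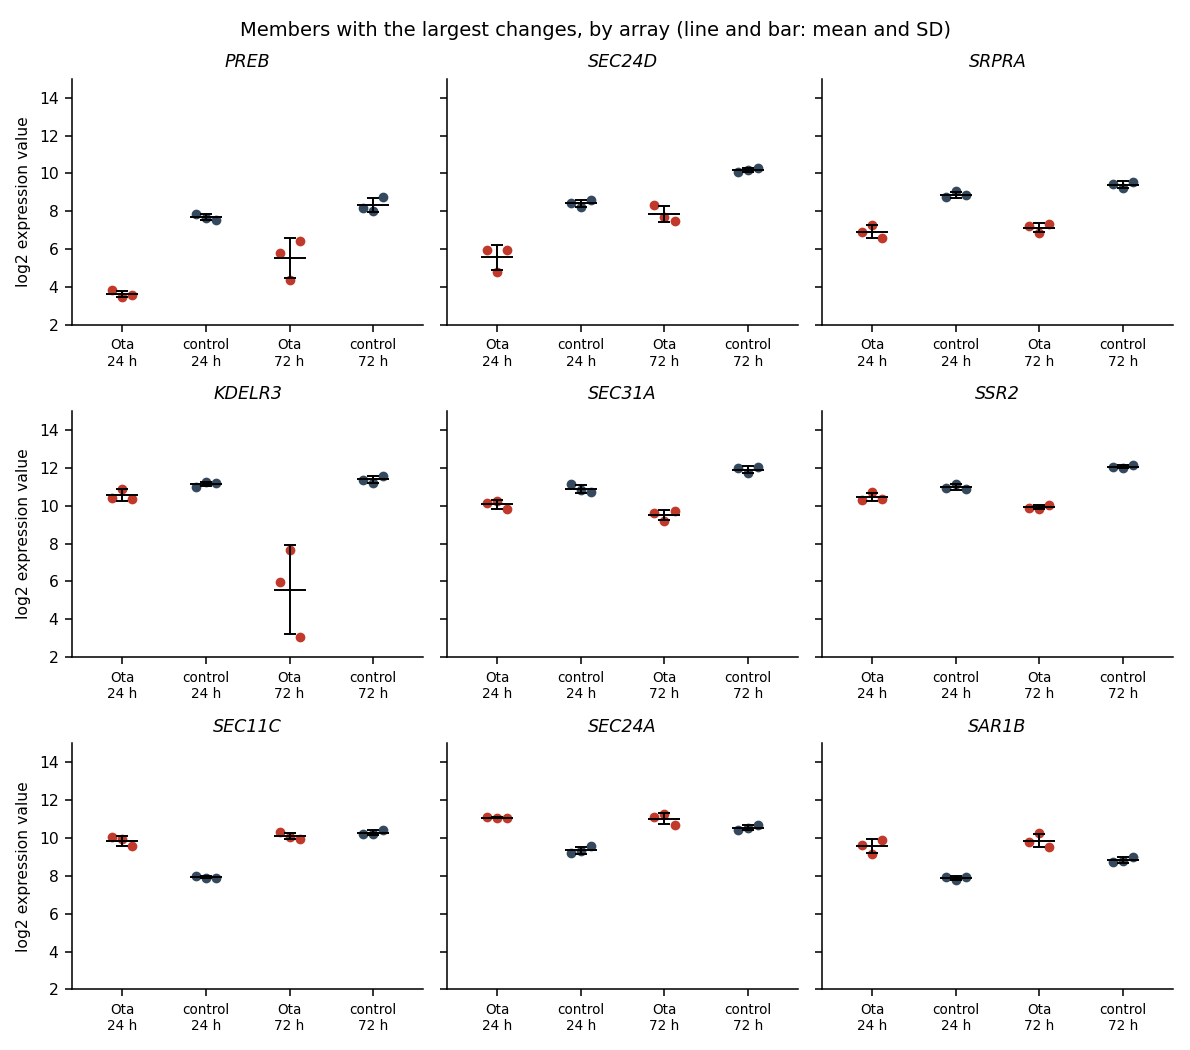
Log2 expression values (y axis) on each array, by group, for the genes with the largest called changes, with the mean and SD (n = 3). KDELR3, PREB and SEC24D separate at both times, and the KDELR3 Ota arrays at 72 h spread from 3.04 to 7.66.

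The COPI coat carries retrieval traffic and is a complex of 7 subunits, all measured here. At 24 h 1 rose and 2 fell (14.3% and 28.6% against 20.8% and 40.5% of all genes), and at 72 h 2 rose and 2 fell (28.6% each against 24.8% and 35.2%). COPE, the epsilon subunit, read 10.82, 11.04 and 10.69 in Ota cells against 10.00, 10.10 and 9.46 in control cells at 24 h, and 10.47, 10.72 and 10.77 against 9.79, 9.42 and 9.84 at 72 h. It rose by like amounts, 1.00 ± 0.19 (adjusted p = 0.00087) and 0.97 ± 0.19 (adjusted p = 0.0011). COPB1, the beta subunit, fell by 1.04 at 24 h and by 0.40 at 72 h, and the 72 h call was lost without Ota replicate 2 (adjusted p = 0.061) or control replicate 3 (0.058). ARCN1, the delta subunit, rose by 0.41 ± 0.14 at 72 h (adjusted p = 0.02), and that call was lost without Ota replicate 1 (0.051), control replicate 1 (0.051) or control replicate 2 (0.075). COPA, COPG1 and COPZ1 passed at neither time, though with the replicate number as a block COPG1 passed at 24 h (0.74, adjusted p = 0.024).

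COPB2, the beta-prime subunit, gave the widest split between probe sets. Its brightest probe set fell by 0.61 at 24 h and by 0.58 at 72 h. Another COPB2 probe set read 9.97, 9.79 and 9.89 in Ota cells against 4.42, 3.80 and 4.03 in control cells at 24 h. Its 72 h values were 10.39, 10.15 and 10.11 in Ota cells against 4.87, 4.66 and 4.32 in control cells. It was near the filter level in every control array and far above it in every Ota array, with changes of 5.80 ± 0.19 and 5.60 ± 0.19. Which COPB2 transcripts each probe set reads is not in the annotation used here.

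Cargo and retrieval receptors select proteins for transport or return them to the ER. Of 6 measured genes, 3 rose and 1 fell at 24 h (50% and 16.7% against 20.8% and 40.5% of all genes), and 0 rose and 3 fell at 72 h (0% and 50% against 24.8% and 35.2%). The KDEL receptors retrieve ER chaperones that carry a KDEL-type tail. KDELR3 had the largest change among the probe sets that stand for the 46: at 72 h it read 5.98, 7.66 and 3.04 in Ota cells against 11.37, 11.22 and 11.59 in control cells. At 24 h it read 10.39, 10.91 and 10.36 in Ota cells against 11, 11.23 and 11.22 in control cells. The Ota arrays at 72 h differed widely among themselves, yet each lay well below every control array. The change was -5.83 ± 0.81 at 72 h (adjusted p = 6.9e-05) and -0.59 ± 0.81 at 24 h (adjusted p = 0.55). At 24 h each Ota array also lay below every control array, with SDs of 0.31 and 0.13. The SE is shared by all groups, and the SD of the 72 h Ota arrays was 2.3, so the 24 h test is weak for this gene.

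A second KDELR3 probe set read 2.18, 4.60 and 3.13 in Ota cells against 9.14, 8.78 and 9.47 in control cells at 72 h, again a change of -5.83, with an SE of 0.48. KDELR1 read 10.51, 10.61 and 10.14 in Ota cells against 11.15, 11.13 and 11.08 in control cells at 72 h, a fall of 0.70 (adjusted p = 0.0069). At 24 h KDELR1 gave 0.43 ± 0.19 (adjusted p = 0.069, and 0.033 with the replicate number as a block). Centring on the array median ended the 72 h call of KDELR1 (-0.42) and kept that of KDELR3.

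SEC22B, a SNARE of ER-Golgi vesicles, read 10.58, 10.76 and 10.60 in Ota cells against 11.78, 11.57 and 12.50 in control cells at 24 h, and 10.91, 10.14 and 11.09 against 12.68, 12.75 and 13.02 at 72 h. It fell by 1.31 (adjusted p = 0.0013) and by 2.10 (adjusted p = 3.8e-05). The receptors LMAN1 (0.65 ± 0.14), TMED10 (0.55 ± 0.13) and TMED2 (0.37 ± 0.14) rose at 24 h. LMAN1 carries glycoproteins, and TMED2 and TMED10 belong to the p24 family. At 72 h the same 3 gave -0.04, -0.13 and 0.03 and were not called. The TMED2 call at 24 h was lost without Ota 24 h replicate 1 (adjusted p = 0.11), control 24 h replicate 2 (0.066), control 24 h replicate 3 (0.14) or control 72 h replicate 1 (0.051).

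Probe sets of a gene disagreed in a share of the set. Among the 26 genes with several passing probe sets, 5 had probe sets called in opposite directions at 24 h (19.2%): COPB2, SAR1B, SEC62, SPCS2 and SSR1. At 72 h there were 4 (15.4%): COPB2, SAR1B, SEC63 and SPCS2. Over the 5153 tested genes with several probe sets, the shares were 11.9% and 6.75%. The opposed SPCS2 probe set changed by 3.01 at 24 h and 2.34 at 72 h. A pair of SEC63 probe sets changed by 3.35 and 2.91 at 24 h, and by 1.31 and 1.42 at 72 h, while the brightest gave 0.44 and -0.54.

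**Figure D4:**
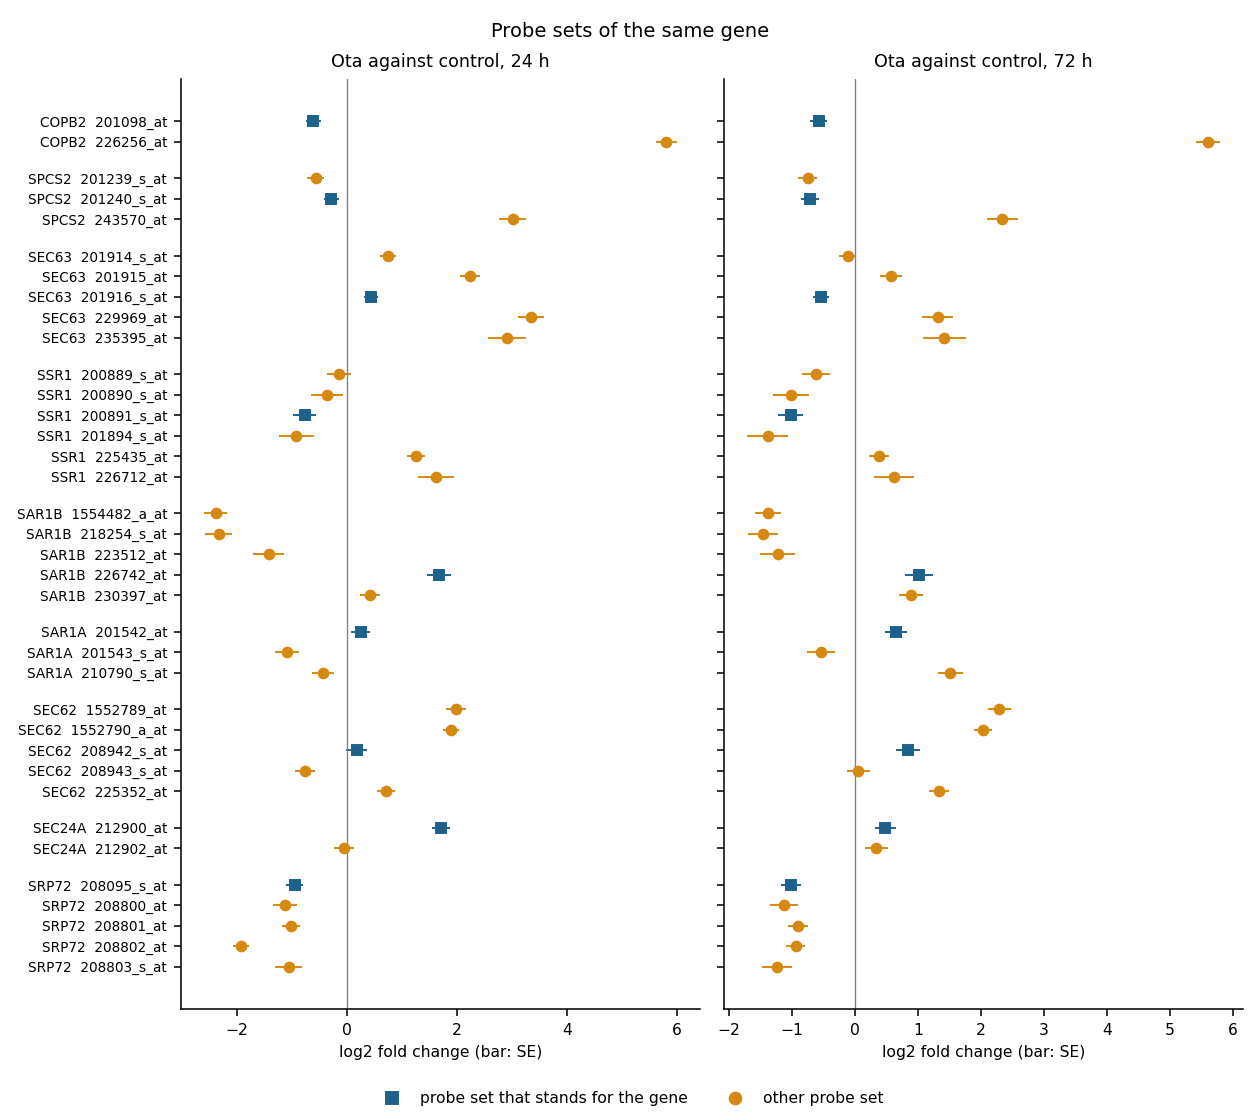
Log2 fold change (Ota minus control) of each passing probe set (squares: the probe set that stands for the gene; circles: others) of 9 genes, at 24 h and 72 h, with bars for the SE. They are the genes with opposed calls, with SAR1A, SEC24A and SRP72 beside them. The COPB2 probe sets lie farthest apart, at -0.61 and 5.80 at 24 h.

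The difference between the 72 h and the 24 h effect was tested for each gene. It passed for 20 of the 46, with 7 higher (15.2%) and 13 lower (28.3%), against a background of 29.6% higher and 19.9% lower and 49.5% in all. Its median was -0.27, against 0.17 over all genes. KDELR3 (-5.24 ± 1.15, adjusted p = 0.003), SEC11C (-2.10 ± 0.23, adjusted p = 3.4e-05) and SSR4 (-1.72 ± 0.24, adjusted p = 0.00016) had the most negative called differences. SPCS3 (1.39), SEC23A (1.37) and SRP54 (1.23) had the most positive ones among the called genes. PREB (1.27) did not pass (adjusted p = 0.081). It passed with the replicate number as a block, a fit that also used the 72 h numbers, which were not read as pairs. Scaling to poly-A spike-ins turned the split to 20 higher and 2 lower, and array-median centring gave 5 higher and 20 lower. For all tested genes, spike-in scaling gave 5908 higher and 524 lower, and centring gave 2520 higher and 2856 lower.

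Paralogs were compared within each array, by the change in their difference between Ota and control. There were 6 pairs and 12 tests, none of which can go below an exact two-sided permutation p of 0.1 with 3 arrays against 3, and the lowest adjusted p was 0.13. KDELR1 minus KDELR3 changed by 1.02 at 24 h and 5.13 at 72 h. SEC24C minus SEC24D changed by 1.88 and 2.38. SEC24A minus SEC24B changed by 2.16 at 24 h and 0.04 at 72 h (p = 0.5, exact permutation), and SEC11A minus SEC11C by -2.19 and -0.09 (p = 0.4, exact permutation). SEC23A minus SEC23B changed by -1.21 and 0.54. SAR1A minus SAR1B changed by -1.43 and -0.37, but by 0.38 and 0.97 with the mean over probe sets.

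In control cells, 21 of the 46 genes were higher at 72 h than at 24 h and 1 was lower, or 45.7% and 2.17%, against a background of 12.2% higher and 13.3% lower and 25.5% in all. The median change was 0.52, against 0.00 over all genes. This comparison shares its control arrays with both Ota comparisons, so the values are given side by side and not set against each other. With arrays scaled to poly-A spike-ins, 10 were higher and 0 lower, against 576 higher and 704 lower among all tested genes. SEC11C read 10.21, 10.20 and 10.43 in controls at 72 h against 8.0, 7.89 and 7.90 at 24 h, a change of 2.35 ± 0.16 (adjusted p = 2.8e-06). SEC24D changed by 1.77 ± 0.30 (adjusted p = 0.0012), SEC61A1 by 1.44 ± 0.17, SEC63 by 1.25 ± 0.12 and LMAN1 by 1.14 ± 0.14. The gene that was lower at 72 h was SRP14 (-0.39 ± 0.13, adjusted p = 0.049). That call was lost under centring, spike-in scaling and the replicate block, and in 7 of the 12 fits that leave out 1 array. The 7 arrays were Ota 24 h replicate 1, Ota 72 h replicate 1, control 24 h replicates 1 and 3 and each of the 72 h controls.

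By role, the control genes higher at 72 h were 3 of 4 translocon, 3 of 5 signal peptidase, 2 of 4 TRAP, 2 of 8 SRP, 5 of 12 COPII, 2 of 7 COPI and 4 of 6 cargo and retrieval genes. The share over all tested genes was 12.2%. The median over the 46 levels was 10.77 on the Ota arrays and 10.89 on the control arrays at 24 h, and 11.03 against 11.49 at 72 h.

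**Figure D5:**
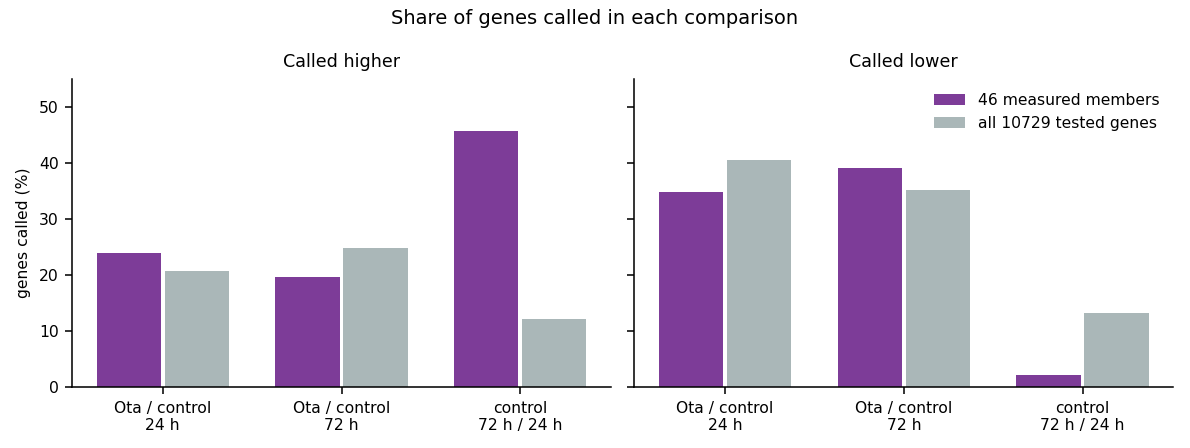
Percentage of genes called higher and called lower (y axis) in each comparison, for the 46 measured genes and for all 10729 tested genes. The shares of the 46 stand near those of all genes in the Ota comparisons, at 23.9% against 20.8% higher at 24 h, and at 45.7% against 12.2% higher in control cells over time.

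Promoter sequences were read for the genes that changed most and for those that share a motif. RefSeq's table (GRCh38.p14, 250 bases before the start and 50 after) held 44 of the 48 genes with 58 promoters, and KDELR2, SEC24D, SRPRA and SPCS1 were not matched. The motif TGACGTG, looked for after the data were seen and on both strands (CACGTCA on the other), was in 16 of the 58 promoters (27.6%), from 14 genes. It was in 1.97% of all 35116 promoters and in 2.45% of the 13007 promoters of tested genes. CCACG was in 81.0% of the 58 promoters, against 38.1% of all and 47.9% of those of tested genes. CCAAT was in 39.7%, against 34.6% and 35.4%. CCACG can overlap the reverse form of TGACGTG. The full ER stress element, CCAAT and CCACG parted by 9 bases, was in 0 of the 58. It was in 0.0769% of all promoters and in 0.131% of those of tested genes. The median GC content was 66.0% against 58.7% of all promoters and 65.0% of those of tested genes. A match is a description of the letters and not a binding site.

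The promoters of the genes with the deepest falls at 72 h and 24 h are shown whole, since they differ in these motifs. Capitals mark the motif CCACG, the motif CCAAT and the motif TGACGTG on either strand. KDELR3 lies at chr22:38467846-38468145 on the plus strand and PREB at chr2:27134587-27134886 on the minus strand.
KDELR3: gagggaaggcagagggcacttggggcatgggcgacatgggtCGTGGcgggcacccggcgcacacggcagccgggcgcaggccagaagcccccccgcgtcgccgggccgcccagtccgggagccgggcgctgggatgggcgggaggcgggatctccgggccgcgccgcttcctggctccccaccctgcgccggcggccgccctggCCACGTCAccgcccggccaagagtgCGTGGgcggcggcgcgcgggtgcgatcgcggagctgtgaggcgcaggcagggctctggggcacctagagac
PREB: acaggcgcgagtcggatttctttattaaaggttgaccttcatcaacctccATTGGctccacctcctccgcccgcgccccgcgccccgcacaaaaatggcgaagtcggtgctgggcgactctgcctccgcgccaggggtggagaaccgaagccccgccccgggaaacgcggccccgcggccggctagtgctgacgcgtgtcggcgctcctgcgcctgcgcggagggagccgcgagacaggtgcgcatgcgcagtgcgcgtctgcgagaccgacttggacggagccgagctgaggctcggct

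KDELR3 held CCACG in 3 places, 1 of them overlapping TGACGTG read on the other strand, and PREB held 1 CCAAT and neither of the others. Windows of 47 bases around TGACGTG (in capitals, either strand) are given next for genes that fell and genes that rose, as examples of each. They lie at chr3:156554139-156554185 (SSR3), chrX:153794520-153794566 (SSR4), chr11:14499832-14499878 (COPB1), chr3:128052416-128052462 (SEC61A1), chr5:134648586-134648632 (SEC24A), chr3:169966771-169966817 (SEC62), chr19:18919365-18919411 (COPE) and chr9:136484698-136484744 (SEC16A). SSR4, SEC61A1, SEC24A and SEC62 are on the plus strand and the others on the minus strand.
SSR3: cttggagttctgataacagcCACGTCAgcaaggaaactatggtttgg
SSR4: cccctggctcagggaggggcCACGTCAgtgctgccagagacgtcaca
COPB1: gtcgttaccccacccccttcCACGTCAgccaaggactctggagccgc
SEC61A1: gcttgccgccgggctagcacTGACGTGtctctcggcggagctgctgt
SEC24A: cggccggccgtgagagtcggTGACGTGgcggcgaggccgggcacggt
SEC62: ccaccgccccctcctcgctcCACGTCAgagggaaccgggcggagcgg
COPE: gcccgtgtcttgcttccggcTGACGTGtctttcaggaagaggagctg
SEC16A: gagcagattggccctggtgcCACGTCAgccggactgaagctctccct

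Of the 14 measured genes with TGACGTG, 3 rose, 5 fell and 6 were not called at 24 h, and 5 rose, 6 fell and 3 were not called at 72 h. Of the 29 measured genes in the table without it, 7 rose, 9 fell and 13 were not called at 24 h, and 4 rose, 9 fell and 16 were not called at 72 h. The background for both sets was 20.8% higher and 40.5% lower at 24 h, and 24.8% higher and 35.2% lower at 72 h.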

How the data were processed

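Total RNA of 12 HK-2 samples was hybridised to Affymetrix arrays. The values deposited by the authors are on a log2 scale, 1 per probe set and array, and the submitters' processing notes list GCRMA. Their settings are not given in the sources used here. Of 54675 probe sets, 41097 carried 1 gene symbol in the platform annotation, 1801 several and 11777 none, and only the first kind was named.

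Genes were kept where the brightest probe set by mean over all arrays, which stands for the gene, had a value over 4 on at least 3 of 12 arrays. That left 10729 genes. Limma 3.58.1 (R 4.3.3) was fitted to the 4 group means over all 12 arrays, with eBayes (residual df 8, prior df 3.56) and Benjamini-Hochberg adjustment over all genes, at 0.05. Contrasts set Ota over control at each time, the later Ota effect over the earlier one, and 72 h over 24 h in control cells. The fit was tested on simulated data. Arrays of a group correlated at 0.954 to 0.994 over tested genes. The median SE was 0.21, and 0.17 for the 46 measured genes. The files give no read depth, and the number of arrays limits the precision.

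The genes, lists and tests were chosen with earlier results of these data known. Values on every array are given for up to 6 genes with the largest called change in each Ota comparison, 3 in the difference and 2 in the control comparison, and for further genes chosen after their values were seen. From each related list up to 2 called genes a comparison are named. Alternatives were quantile normalization, array-median centring, poly-A spike-in scaling (24 probe sets), no filter, a filter at 6, the mean over probe sets, each probe set alone, array weights, trend and robust moderation, the 6 arrays of a comparison alone, the replicate number as a block and each array left out. Deviations of same-numbered Ota and control arrays correlated at 0.12, 0.23 and 0.27 at 24 h, and at -0.05, 0.14 and 0.19 at 72 h. The numbers were thus read as pairs at 24 h, where blocked values are given beside the calls they change, and not at 72 h. The block fit itself held replicate terms at both times, and the main counts are without it. Promoters came from RefSeq (GRCh38.p14), and motifs were searched on both strands.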

Additional observations from a re-analysis of the deposited data

Results flagged for a closer look

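The effect of Ota differed between 72 h and 24 h, by limma's test of the difference itself (adjusted p under 0.05 over all tested genes), in 20 of the 46 measured genes, against 49.5% of all tested genes. In log2 units, 72 h minus 24 h, it was lower for KDELR3 (-5.24), SEC11C (-2.10), SSR4 (-1.72), SSR2 (-1.59), SEC31A (-1.58), SPCS1 (-1.58), SEC24A (-1.23), KDELR1 (-1.13), SEC63 (-0.98), SEC61A1 (-0.83), LMAN1 (-0.69), TMED10 (-0.68) and SRP14 (-0.54). It was higher for COPB1 (0.63), SEC24B (0.89), SEC16A (0.93), SEC24C (1.01), SRP54 (1.23), SEC23A (1.37) and SPCS3 (1.39). For SEC11C the Ota arrays averaged 9.85 at 24 h and 10.10 at 72 h, and the control arrays 7.93 and 10.28. The calls of SEC24B and SRP14 were each lost on leaving out any of several single arrays, with adjusted p up to 0.097 for SEC24B and 0.074 for SRP14.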

How the results depend on the processing

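Scaling moved the median fold change of all genes at 24 h by 0.20 (quantile normalization), 0.56 (array-median centring) and -1.85 (poly-A spike-ins), and at 72 h by 0.07, 0.28 and -0.89. Rises made up 34.0% of all calls at 24 h, and 45.0%, 61.9% and 1.49% under those settings, and 41.3% at 72 h, with 44.4%, 56.1% and 7.63%. Among differences of effects the share was 59.8%, and 52.7%, 46.9% and 91.9%. The cause of these shifts was not tested. The files hold no probe-level signal over background, so low values, such as PREB at 24 h, carry no detection call here, and 3 arrays a group limit the precision.

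Counts of the 46 genes that moved by over 1.5 times were as follows. Centring gave 23 higher and 8 lower at 24 h, 20 lower for the difference and 0 lower in controls over time. Its counts for all tested genes were 4659 higher and 2863 lower at 24 h, 2856 lower for the difference and 1355 lower in controls. Poly-A scaling, an alternative first chosen in earlier work after the data were seen, gave 0 higher and 43 lower at 24 h, 0 higher and 34 lower at 72 h, 20 higher and 2 lower for the difference, and 10 higher and 0 lower in controls over time. Among all tested genes it gave 152 higher and 10035 lower at 24 h, and 555 and 6718 at 72 h. The counts were 5908 higher and 524 lower for the difference, and 576 and 704 in controls. Array weights gave 19 higher at 24 h, 13 higher and 21 lower for the difference, and 2 lower in controls. The mean over probe sets gave 3 lower in controls, and the fit on 6 arrays alone gave 2. For array weights, these settings and the fits below, counts over all tested genes are not given. Leaving out 1 array at a time gave 10 to 13 higher and 16 to 18 lower at 24 h, 6 to 10 higher and 16 to 19 lower at 72 h, 6 to 10 higher and 12 to 14 lower for the difference, and 17 to 26 higher and 0 to 1 lower in controls over time. Of the single-gene values called in the main fit or in the fit without an array, leaving out 1 array turned the direction of 0. Turns of uncalled values were not counted.

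With the replicate block, the same numbers gave 14 higher and 16 lower at 24 h, 9 higher and 18 lower at 72 h, a difference called higher for 9 and lower for 13, and 24 higher and 0 lower in controls over time. The block ended the call of the SEC24B difference (0.89, adjusted p = 0.06). It added calls for SEC23B (adjusted p = 0.031), COPG1 (0.024) and KDELR1 (0.033) at 24 h, and for the differences of SEC62 (0.036), SRP19 (0.012) and PREB (0.019). The block results for differences also rest on the 72 h numbers, which were not read as pairs.

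Poly-A scaling turned the direction of these log2 fold changes at 24 h: SEC61A1 -1.60, SEC61B -1.73, SEC62 -1.67, SEC63 -1.41, SPCS1 -1.40, SSR4 -1.20, SRP9 -1.63, SRP14 -1.38, SEC23B -1.42, SEC24A -0.14, SAR1A -1.60, SAR1B -0.17, COPA -1.66, COPE -0.85, COPG1 -1.11, COPZ1 -1.66, ARCN1 -1.72, KDELR1 -1.42, TMED2 -1.48, TMED10 -1.30 and LMAN1 -1.20. It turned these at 72 h: SEC62 -0.05, SPCS3 -0.84, SRP9 -0.17, SEC16A -0.24, SEC23A -0.30, SEC23B -0.85, SEC24A -0.41, SEC24C -0.85, SAR1A -0.24, COPA -0.75, ARCN1 -0.48 and TMED2 -0.86. Among the differences of effects it turned SEC61A1 0.13, SEC11A 0.96, SRP14 0.42, SEC13 0.93, COPA 0.90, COPE 0.93, TMED10 0.28 and LMAN1 0.28. Centring turned SSR2 (0.02) and SRPRB (0.53) at 24 h. These lists, and those of single genes in the next paragraph, hold only values called in the main fit or under the setting. Turns of values called in neither are left out.

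The mean over probe sets turned SPCS2 (0.72), SSR1 (0.11), SAR1A (-0.43), SAR1B (-0.81) and COPB2 (2.60) at 24 h, and SEC63 (0.53), SPCS2 (0.29), SAR1B (-0.43) and COPB2 (2.51) at 72 h. It also turned SEC24A minus SEC24B at 72 h (-0.03) and SAR1A minus SAR1B at 24 h (0.38) and 72 h (0.97). Single probe sets that opposed the brightest one gave, at 24 h and 72 h, 5.80 and 5.60 for COPB2, -1.09 and -0.54 for SAR1A, 3.01 and 2.34 for SPCS2, and 1.26 and 0.38, then 1.62 and 0.62, for SSR1. For SAR1B they gave -2.38 and -1.38, -2.33 and -1.46, and -1.42 and -1.23. At 24 h alone SEC24A gave -0.05 and SEC62 -0.76, and at 72 h alone SEC63 gave 0.57, 1.31 and 1.42 and TMED10 0.38.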

Other observations

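Neighbouring genes of the same route were counted by lists that are not among the 48. All 12 subunits of oligosaccharyltransferase, which attaches N-glycans as chains leave the translocon, were measured. At 24 h 3 rose and 0 fell, and at 72 h 0 rose and 8 fell, with a median of -0.77. OSTC averaged 9.24 in Ota cells and 12.31 in control cells at 72 h (-3.08 ± 0.19, adjusted p = 1.8e-07), and TMEM258 averaged 10.18 against 11.92 (-1.74 ± 0.15, adjusted p = 1.6e-06). Among 22 other measured translocation and membrane insertion factors, 6 rose and 4 fell at 24 h, and 7 rose and 9 fell at 72 h. EMC2, of the ER membrane protein complex, averaged 5.01 in Ota cells and 10.40 in control cells at 24 h (-5.39 ± 0.33), and 9.10 against 10.79 at 72 h. HYOU1, an ER chaperone, changed by -3.23 ± 0.24 at 72 h. These shares stand against backgrounds of 20.8% higher and 40.5% lower at 24 h and of 24.8% and 35.2% at 72 h.

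Of 28 measured exit, tethering and fusion factors, 5 rose and 12 fell at 24 h, and 4 rose and 12 fell at 72 h. GOLGB1 (giantin), a Golgi tether, changed by -3.98 ± 0.29 at 24 h, and STX5, a Golgi SNARE, by -3.79 ± 0.48 at 72 h. STX5 averaged 3.28 in Ota cells and 7.06 in control cells at 72 h. Of 10 COPI paralogs and Arf regulators, 3 rose and 4 fell at 24 h, and 1 rose and 5 fell at 72 h. ARFGAP2, which stimulates GTP hydrolysis by Arf on the coat, averaged 2.94 in Ota cells and 7.16 in control cells at 24 h, and 3.90 against 7.21 at 72 h. Of 15 other cargo receptors and TMED proteins, 6 rose and 3 fell at 24 h, and 2 rose and 5 fell at 72 h, with TMED5 at -1.20 ± 0.14. Of 12 ER stress transcription factors and sensors, 3 rose and 6 fell at 24 h, and 1 rose and 8 fell at 72 h, when CREB3L4 changed by -4.29 ± 0.17 and DDIT3 by -3.97 ± 0.31. CREB3L4 averaged 2.39 in Ota cells and 6.68 in control cells at 72 h. The 72 h Ota averages of CREB3L4, STX5 and ARFGAP2 lay under 4, the level of the filter. In control cells 8 of the 12 factors and sensors were higher at 72 h than at 24 h, and DDIT3 averaged 11.84 at 72 h against 6.82 at 24 h. Over all tested genes 12.2% were higher in that comparison, and the backgrounds for the Ota counts are those given for the first lists, 20.8% higher and 40.5% lower at 24 h and 24.8% and 35.2% at 72 h.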
